A study of Homo sapiens with 8 samples.

Results

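Open chromatin was described at 9 genes of the interferon gamma (IFNγ) signalling pathway: the receptor subunits IFNGR1 and IFNGR2, the kinases JAK1 and JAK2, the transcription factors STAT2, STAT3, IRF9 and IRF1, and the inhibitor SOCS3. A region was counted as a member when its peaks lay within 1 kb of any transcription start site (TSS) of these genes, in the gene body, or within 10 kb of it (GENCODE 44, GRCh38). This gave 33 of 52105 regions, where a region joins the peaks of different libraries that overlap by at least 1 bp. Of these, 13 were promoter regions and 20 lay elsewhere.

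The libraries were FAIRE-seq, a method that recovers nucleosome-free DNA after formaldehyde fixation, from U2OS, a human osteosarcoma cell line. The 4 clones were WT_4 and WT_5, which are wild type (WT), and KO_C5 and KO_D2, which lack ZBTB48 (KO), a zinc finger protein that binds the TTAGGG telomere repeat. Each clone is 1 line and gave 1 untreated library and 1 library with 250 U/ml IFNγ, so that each of the 4 groups held 2 libraries. The labels give 24 h for the treatment, whereas the text of the study gives a longer time, and the duration is therefore uncertain. Peak lists hold no expression and cannot check the knockout itself.

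IFNγ binds a receptor built of IFNGR1 and IFNGR2, which activates the kinases JAK1 and JAK2 on its cytoplasmic tails. The kinases phosphorylate STAT proteins, whose dimers bind gamma-activated sites (GAS) in target promoters. IRF1 is a classical target that carries the response to later genes. IRF9 joins STAT2 in a complex that binds interferon-stimulated response elements (ISRE). SOCS3 is induced by STAT signalling and blocks the receptor-kinase complexes in a feedback loop.

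The stretches of sequence below come from the GRCh38 reference and are written 5′ to 3′ on the strand of the gene. Capitals mark matches to the GAS (TTC, any 3 bases, GAA) or to the ISRE core (GAAA, any 2 bases, GAAA), both searched on both strands. The first lies under the summits of the strongest member promoter, that of IRF1 (chr5:132490789-132490997), and the next under 7 of the 8 summits of the region 5.18 kb upstream with the largest IFNγ difference among the members (chr5:132495853-132496053). The third is the only pair of GAS and ISRE core matches in that upstream region (chr5:132496985-132497125).
IRF1 promoter: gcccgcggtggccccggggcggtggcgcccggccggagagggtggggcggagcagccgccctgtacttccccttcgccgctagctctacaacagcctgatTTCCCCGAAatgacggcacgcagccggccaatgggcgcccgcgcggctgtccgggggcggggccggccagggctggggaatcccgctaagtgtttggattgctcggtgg
IRF1 upstream, summits: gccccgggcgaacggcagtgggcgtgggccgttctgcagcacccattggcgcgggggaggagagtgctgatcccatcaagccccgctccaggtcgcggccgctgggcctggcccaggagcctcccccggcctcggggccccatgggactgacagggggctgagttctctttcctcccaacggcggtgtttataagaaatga
IRF1 upstream, GAS and ISRE core: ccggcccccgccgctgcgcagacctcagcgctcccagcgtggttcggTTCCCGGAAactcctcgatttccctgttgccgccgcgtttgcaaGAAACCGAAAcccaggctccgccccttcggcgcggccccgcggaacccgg

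The next set holds both stretches upstream of SOCS3 in which a GAS match lay within a peak of IFNγ libraries alone (chr17:78365867-78365975 and chr17:78366335-78366443), the IRF9 promoter (chr14:24161193-24161219) and the IFNGR1 promoter (chr6:137219584-137219693). IRF9 is read on the plus strand and the others on the minus strand. Apart from the IRF9 stretch, none of the printed stretches overlaps an annotated exon.
SOCS3 upstream, middle region: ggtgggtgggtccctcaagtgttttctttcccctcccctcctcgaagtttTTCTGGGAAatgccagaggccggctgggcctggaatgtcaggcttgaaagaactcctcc
SOCS3 upstream, further region: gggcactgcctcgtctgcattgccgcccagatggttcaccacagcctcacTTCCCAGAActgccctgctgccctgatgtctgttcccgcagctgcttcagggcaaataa
IRF9 promoter: ccacgtgatTTCTGGGAAaaggccctc
IFNGR1 promoter: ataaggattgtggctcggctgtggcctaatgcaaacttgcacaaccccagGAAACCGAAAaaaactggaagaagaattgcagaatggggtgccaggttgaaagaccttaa

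Most of these promoters were open in every library, treated or not. A promoter peak was present in all 8 libraries for 8 of the 9 genes, against 52.1% of 19970 protein-coding genes, and the exception was IRF9. Over all 33 member regions, 13 had a peak in all 8 libraries (22.2% of all regions) and 11 had a peak in 1 library (38.9% of all regions). Strength is given in a pair of measures. Fold enrichment is the fragment pileup at the summit over the local background, with 1 added to each. The percentile ranks a peak by −log10 p within its own list, with 100 as the strongest. In bulk chromatin, a change in the number of cells with an open site and a change in how open it is in each cell cannot be told apart.

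**Figure D1:**
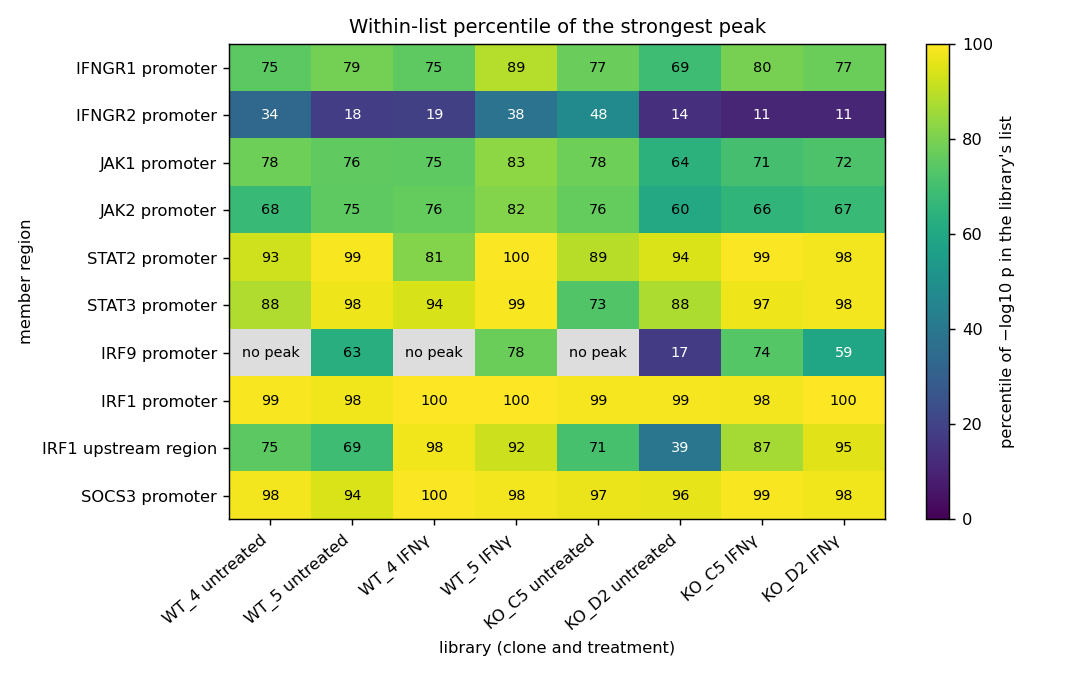
Within-list percentile of the strongest peak at 10 member regions (rows) in the 8 libraries (columns), where 100 is the strongest peak of a list and grey marks no peak. IRF1 and SOCS3 promoters sat at 94.3 or above in every library, the IFNGR2 promoter at 47.8 or below, and the IRF9 promoter had no peak in 3 libraries.

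The lists differed in length, from 16730 to 37533 peaks, and IFNγ lists were longer than the untreated list of the same clone in 3 of 4 clones, WT_4 being the exception. The median log2 fold over the 11551 regions shared by all libraries was 4.50 to 5.21 in the WT libraries and 4.12 to 4.61 in the KO libraries. Fold differences below are therefore on log2 fold centred on this median of each library, and were tested with limma over all 11551 regions. No region was called at an adjusted p of 0.05 in any of the 6 comparisons (0% for IFNγ in both genotypes, in WT, in KO, for KO against WT untreated and with IFNγ, and for the genotype difference in the IFNγ effect). Before adjustment, limma gave a p under 0.05 for 362 regions for IFNγ over both genotypes, 126 in WT, 340 in KO, 859 for the untreated and 987 for the treated genotype comparison, and 96 for the genotype difference. With the clone as a block, which pairs its libraries, 1801 regions had an unadjusted p under 0.05 (limma) for IFNγ over both genotypes. The block gave 598 in WT, 2018 in KO and 770 for the genotype difference. On summit pileup in place of fold, the untreated and treated genotype comparisons gave 145 and 131 (limma, no block). No member was called in any comparison. Over the 13 member regions in all libraries the IFNγ difference was above 0 at 7 and below 0 at 6, with a median of 0.01, against a median of -0.08 over all 11551 regions. Since no call was made, the differences below are values with their standard errors (SE).

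The receptor genes had open promoters of very different strength. At the IFNGR1 promoter (chr6:137218974-137219660), which encodes the ligand-binding chain, fold was 30.5 and 20.3 in untreated WT_4 and WT_5, 23.9 and 43.1 with IFNγ, 23.05 and 17.8 in untreated KO_C5 and KO_D2, and 23.8 and 19.6 with IFNγ. The groups overlapped, and the IFNγ difference was 0.21 ± 0.18 SE on the centred log2 scale (adjusted p = 0.884, limma). The ISRE core match in this promoter lay 254 bp upstream of the TSS, 172 bp from the nearest summit.

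The IFNGR2 promoter (chr21:33403165-33404613), which encodes the signalling chain, was the weakest of the promoter regions found in all libraries. Its percentile was 33.8 and 18.4 in untreated WT_4 and WT_5, 19.1 and 38.2 with IFNγ, 47.8 and 13.6 in untreated KO_C5 and KO_D2, and 10.7 and 10.6 with IFNγ. Its fold in the same order was 8.50, 5.50, 6.09, 7.73, 11.7, 6.43, 5.13 and 4.87. The highest value was that of untreated KO_C5, and the lowest were those of both treated KO clones. The untreated KO clones exceeded the untreated WT clones by 0.98 ± 0.33 (adjusted p = 0.638, limma), and IFNγ in KO gave a difference of -0.89 ± 0.33 (adjusted p = 0.806, limma). Without untreated KO_C5 these differences were 0.63 and -0.56, and without centring the genotype difference was 0.34. The summit pileup here was only 12 to 31 fragments, which limits the precision of these differences. Relative to the TSS, the summit of untreated WT_4 lay at 546 bp, against -28 to 32 bp in the other libraries. Its value was thus taken at another position within the region. A region at the 3′ end of IFNGR2 (chr21:33479331-33480461), which is the promoter of the neighbouring gene TMEM50B, was much stronger, with percentiles of 96.2 to 99.4.

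The kinase promoters ranked between that of IFNGR2 and those of IRF1 and SOCS3 in every library. JAK1, which pairs with IFNGR1, had a peak at its canonical promoter (chr1:64965963-64966859) with percentiles of 64.3 to 83.2 over the 8 libraries, and the JAK2 promoter ranked at 60.2 to 81.6. A second JAK1 TSS 100.0 kb further upstream (chr1:65066550-65067975) was also open in all 8, at percentiles of 50.04 to 76.2, as was an intronic region at the start of LINC01359 (chr1:65002505-65003276), at 35.1 to 62.6. The IFNγ differences at these JAK1 regions were -0.15 ± 0.21, 0.01 ± 0.19 and -0.08 ± 0.22, all smaller than their SE.

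JAK2, the partner of IFNGR2, had differences of opposite sign in WT and KO on centred fold, but not by percentile. At its promoter (chr9:4984355-4985558), fold went from 32.01 to 31.5 in WT_4 and from 21.7 to 39.6 in WT_5, and from 31.6 to 18.0 in KO_C5 and from 17.2 to 13.4 in KO_D2. Relative to the TSS, the untreated and treated summits lay at -447 and -441 bp in WT_4 and at -79 and -455 bp in WT_5. In KO_C5 they lay at -486 and -71 bp, and in KO_D2 at -29 and -6 bp. The values of WT_5 and KO_C5 thus compare different positions within the region. Relative to the library medians, both WT clones were higher with IFNγ, by 0.58 and 0.36, and both KO clones were lower, at -1.06 and -0.29. By percentile, KO_D2 was higher with IFNγ, 67.4 against 60.2, as were both WT clones, and KO_C5 alone was lower, 65.5 against 76.5. Percentiles are not centred, and over all 11551 regions their median IFNγ effect was 5.01 in KO and 0.005 in WT. A rise in KO by percentile is therefore partly common to shared regions. The genotype difference in the IFNγ effect was -1.15 ± 0.44, with an adjusted p of 1.00 (limma). On summit pileup this difference was -0.74. The IFNγ effect in KO, -0.68, became -0.34 without untreated KO_C5 and -1.04 without untreated KO_D2. The same arrangement of signs on centred fold, in either direction, was found at 3 of the 13 member regions in all libraries (JAK2, STAT2 and SOCS3 promoters) and at 12.4% of all 11551 regions. The remaining JAK2 region, in an intron (chr9:5042922-5043197), was a single peak of fold 4.23 in untreated WT_4. No GAS, ISRE core or TTAGGG match was found in any JAK1 or JAK2 region.

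Among the STAT genes, the STAT3 promoter (chr17:42387989-42389008) was higher with IFNγ in all 4 clones. STAT3 is best known as the mediator of IL-6 type signals and is also phosphorylated by JAK1. Its fold went from 59.6 to 52.5 in WT_4, from 68.3 to 102 in WT_5, from 20.0 to 54.3 in KO_C5 and from 32.2 to 44.8 in KO_D2. After centring, the differences were 0.42, 0.07, 1.19 and 0.54, so that the direction in WT_4 rests on the centring. The untreated and treated groups overlapped. The mean difference was 0.56 ± 0.26 (adjusted p = 0.884, limma), and 0.33 without untreated KO_C5. Differences of one sign in all 4 clones were seen at 2 of 13 member regions in the higher direction, against 9.09% of all regions, and at 0 of 13 in the lower direction, against 15.6%.

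The STAT2 promoter (chr12:56359955-56360715) was open in all libraries with percentiles of 81.3 to 99.5. Fold went from 79.1 to 33.2 in WT_4 and from 84.0 to 119 in WT_5, and from 44.1 to 83.5 in KO_C5 and from 47.7 to 52.0 in KO_D2. The centred differences were -0.65 and -0.01 in WT and 0.67 and 0.19 in KO, which gave a mean of 0.05 ± 0.28. Treated WT_4 had the lowest and treated WT_5 the highest fold, so that the largest gap lay between libraries of 1 group. A region downstream of STAT2 at the start of PAN2 and IL23A (chr12:56333708-56334361) had no peak in untreated WT_4 and untreated KO_C5. It reached folds of 41.6 and 66.2 in untreated and treated WT_5, and only 6.28 in treated WT_4. In the KO libraries with a peak, fold was 14.0 in untreated KO_D2, 32.02 in treated KO_C5 and 25.4 in treated KO_D2. STAT3 also had weak peaks near an internal TSS (chr17:42325734-42326011) in 4 libraries, 2 treated and 2 untreated, with folds of 4.51 to 9.04, and its other internal region chosen for rank (chr17:42322831-42323049) was a peak of fold 6.01 in treated WT_5 alone.

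IRF9 was the member whose promoter was not open in every library. A peak was found in 5 of 8 libraries (chr14:24160950-24161799), in a region that also lies within 1 kb of a TSS of RNF31. Fold was 11.1 and 22.3 in untreated and treated WT_5, 6.01 and 9.31 in untreated and treated KO_D2, and 18.9 in treated KO_C5. Neither library of WT_4 nor untreated KO_C5 had a peak. By treatment, 2 untreated and 3 treated libraries had a peak, and by genotype 2 WT and 3 KO libraries. In the clones with both values, the treated library had the higher raw fold, in WT_5 and in KO_D2.

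Many other regions had the same set of libraries. Of the 2432 regions with a peak in exactly 5 libraries, 862 (35.4%) had it in the same 5, and SPARC, one of the osteoblast genes checked, had its promoter peak in these 5 too. Whether a property of these libraries plays a part in the IRF9 pattern was not tested. The region holds 2 GAS matches, one 59 bp upstream of the TSS and 16 bp from the nearest summit.

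IRF1 had the promoter with the highest mean percentile of the 9 genes, 99.0, and upstream of it the member region that differed most with IFNγ. The canonical promoter (chr5:132490004-132491489) ranked at percentiles of 98.0 to 99.8 in all 8 libraries. Its fold went from 152 to 125 in WT_4, from 78.5 to 146 in WT_5, from 67.0 to 55.7 in KO_C5 and from 53.8 to 60.5 in KO_D2. The raw folds of all KO libraries lay below those of all WT libraries. After centring, the KO libraries overlapped the WT libraries, with a KO minus WT difference of -0.23 ± 0.34 untreated and -0.73 ± 0.34 with IFNγ (adjusted p = 0.914 and 0.588). The genotype difference of -0.73 became -0.22 on summit pileup and -1.22 without centring. It was -0.42 without treated KO_C5 and -0.48 without treated WT_4. The IFNγ difference was 0.11 ± 0.24. All 8 summits lay 100 to 121 bp upstream of the TSS, and the GAS match printed above lay 120 bp upstream, at most 20 bp from any of them.

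The IRF1 upstream region (chr5:132495585-132497415, 1831 bp) lies in an intron of longer IRF1 transcripts, within 1 kb of a minor IRF1 TSS. Fold went from 39.97 to 75.1 in WT_4, from 19.0 to 64.8 in WT_5, from 20.3 to 32.2 in KO_C5 and from 9.76 to 36.5 in KO_D2. Every clone was higher with IFNγ, and the raw folds of treated and untreated libraries overlapped only because untreated WT_4 exceeded both treated KO libraries. The summit pileup was 73 and 43 fragments in untreated WT_4 and WT_5 and 69 and 30 in untreated KO_C5 and KO_D2. With IFNγ it was 134, 128, 131 and 169 in the same clones. The percentile was 39.2 to 74.9 in the untreated and 86.7 to 97.9 in the IFNγ libraries. Neither pileup, which is not scaled for depth here, nor percentile overlapped between treated and untreated libraries. The share of all regions separated on these measures was not computed. Percentiles in KO also had a median IFNγ effect of 5.01 over all shared regions.

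On the centred log2 scale the 4 clones differed by 1.52, 1.27, 0.41 and 1.97, in the order WT_4, WT_5, KO_C5 and KO_D2. The untreated libraries reached from -0.90 to 0.21 and the treated from 0.40 to 1.73, without overlap. Such separation, with the treated libraries higher, was seen at 1 of 13 member regions and at 0.71% of all regions, and with the treated libraries lower at 0 of 13 and at 1.65%. The mean difference was 1.29 ± 0.33, or 2.45-fold, which ranked at 13 of 11551 regions from the highest. Its adjusted p was 0.884 (limma), so it was not called. With the clone as a block, the adjusted p was 0.203 with the same estimate, and 1 region of 11551 (0.00866%), outside the member list, was called. Leaving out 1 library at a time gave differences of 1.05 to 1.52. The effect was 1.39 ± 0.46 in WT and 1.19 ± 0.46 in KO. Single libraries moved these values, to 0.92 in WT without treated WT_4 and to 0.74 in KO without untreated KO_D2. The genotype difference of -0.20 ± 0.65 was smaller than its SE (adjusted p = 1.00).

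**Figure D2:**
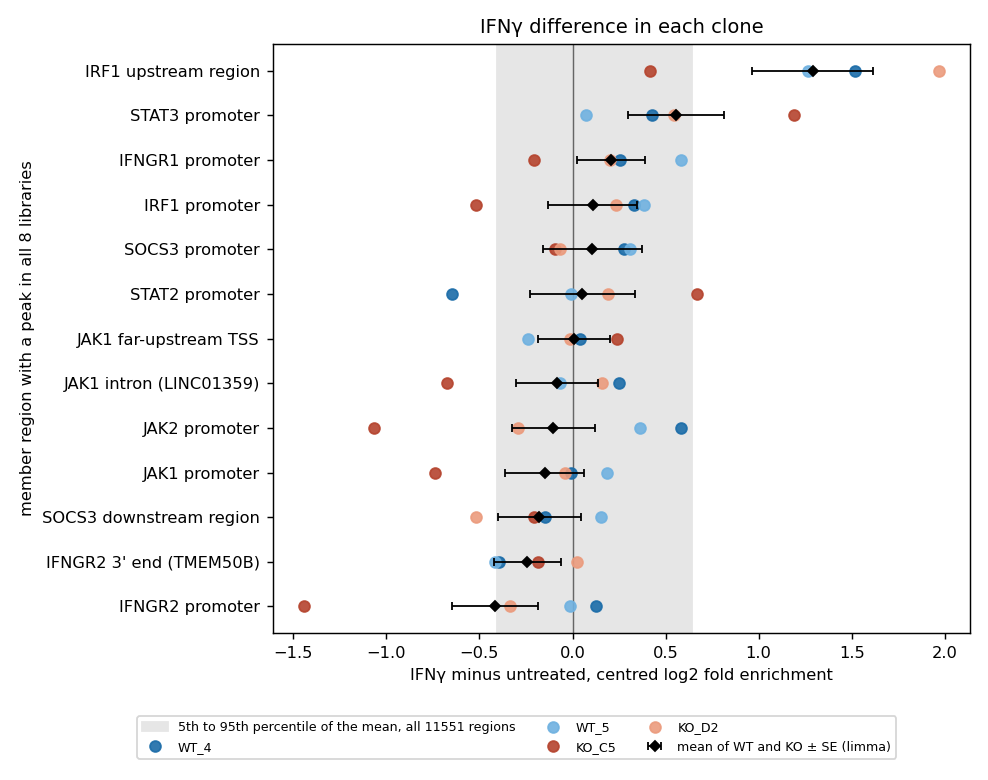
IFNγ minus untreated difference in centred log2 fold enrichment (x axis) at the 13 member regions with a peak in all 8 libraries (y axis). Coloured points are the 4 clones, black diamonds the mean of WT and KO with its SE from limma, and the grey band spans the 5th to 95th percentile of the mean over all 11551 regions (-0.41 to 0.64). The IRF1 upstream region, at 1.29, is the only member mean outside this band on the high side, and the IFNGR2 promoter, at -0.42, the only one on the low side.

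**Figure D3:**
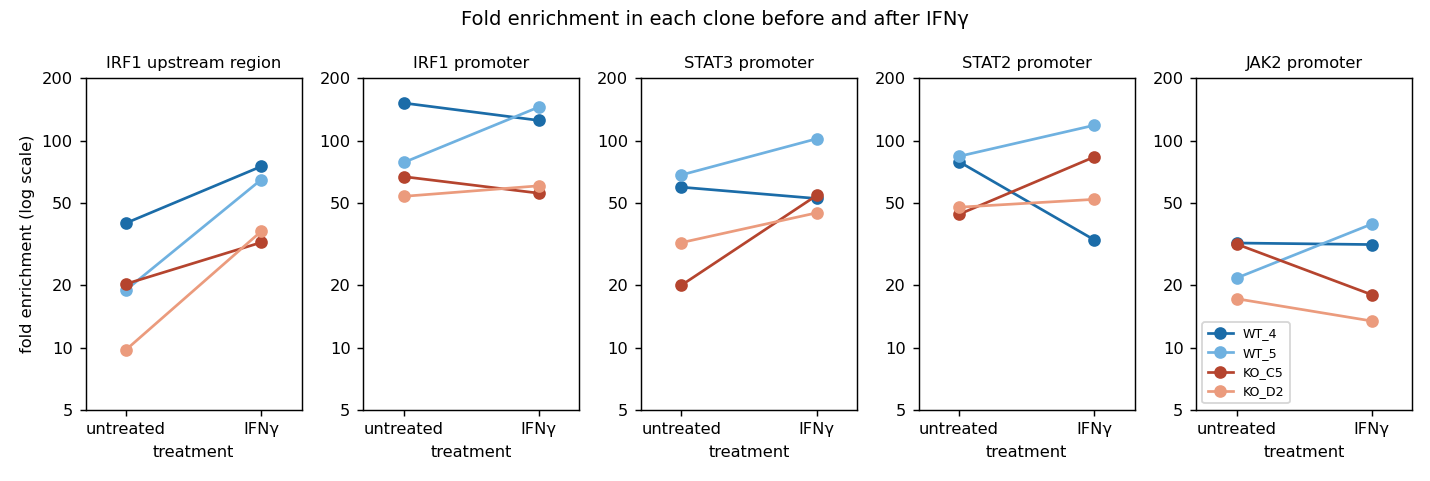
Fold enrichment (log scale) without and with IFNγ in each of the 4 clones at 5 member regions. The 4 lines of the IRF1 upstream region all go up, from 9.76 to 39.97 untreated to 32.2 to 75.1 with IFNγ, whereas the lines of the IRF1, STAT3, STAT2 and JAK2 promoters go both ways.

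The shape of the upstream IRF1 peaks differed as well. In untreated WT_4, KO_C5 and KO_D2 the region held 2 separate peaks, and in untreated WT_5 and all 4 treated libraries a single long one. The length under peaks went from 1102 to 1679 bp in WT_4, from 1378 to 1604 bp in WT_5, from 1083 to 1580 bp in KO_C5 and from 1117 to 1831 bp in KO_D2. The summits of the treated libraries lay 5136 to 5171 bp upstream of the canonical TSS. The second peak of the untreated libraries, with folds of 18.8 in WT_4, 14.4 in KO_C5 and 7.55 in KO_D2, had its summit 6170, 6211 and 6236 bp upstream. Next to it were the ISRE core match at 6256 bp and a GAS match at 6301 bp, the pair printed above. GAS matches also lay at 5524 and 5846 bp, the latter between the 2 separate peaks in untreated WT_4, KO_C5 and KO_D2. A TTAGGG at 6530 bp lay under a peak in treated WT_4 and treated KO_D2 alone.

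**Figure D4:**
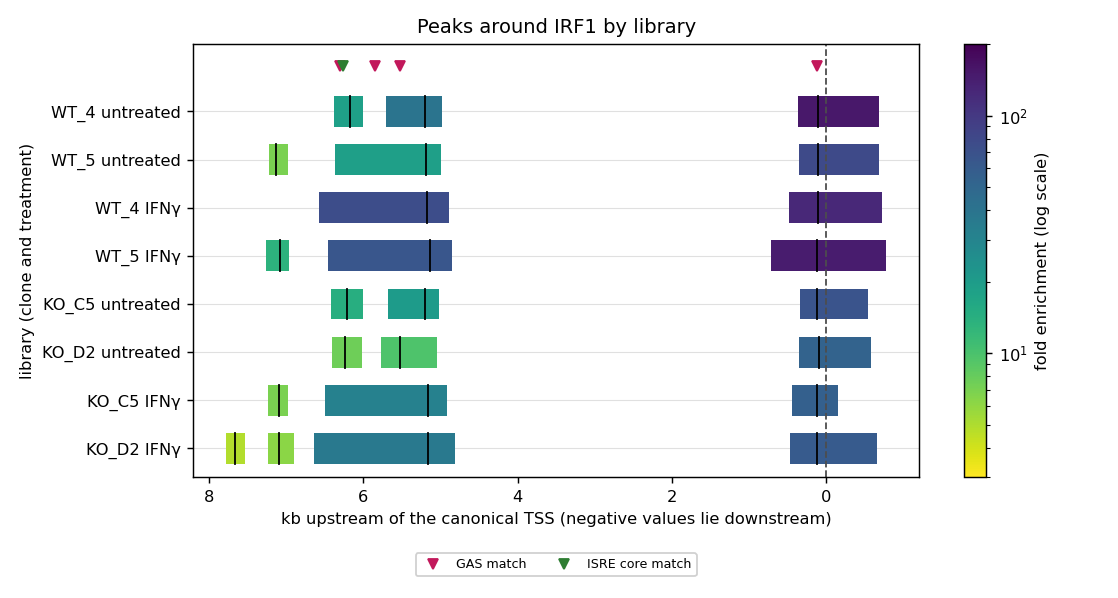
Peaks around IRF1 in the 8 libraries (rows) by distance in kb upstream of the canonical TSS (dashed line). Boxes are peaks coloured by fold enrichment on a log scale, black ticks their summits, and triangles GAS and ISRE core matches. The region 4812 to 6642 bp upstream is 1 peak in every IFNγ library and 2 peaks in 3 of the 4 untreated libraries.

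Further upstream in the same intron, a weaker region (chr5:132497673-132498033) had a peak in untreated WT_5 at fold 6.999 and in 3 treated libraries, at 13.5 in WT_5, 6.97 in KO_C5 and 6.18 in KO_D2. It was the only member region gained in KO, with a peak in both treated and no untreated KO library (1 of 26 member regions with a KO peak, against 10.4% of all such regions). The count was 3 without untreated KO_D2, 5 without either treated KO library, and 0 with the lists set to equal length. The share over all regions was not computed for these settings, so these counts cannot be set against 10.4%. WT_4 had no peak there in either library.

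At the SOCS3 promoter (chr17:78358715-78361121), fold went from 107 to 85.1 in WT_4, from 45.8 to 80.6 in WT_5, from 62.3 to 69.5 in KO_C5 and from 48.9 to 44.7 in KO_D2. Its percentiles of 94.3 to 99.6 placed it next to IRF1. The centred differences were 0.27 and 0.31 in WT and -0.09 and -0.07 in KO, with a mean of 0.11 ± 0.26. A region 7.08 kb downstream (chr17:78352673-78353600) was open in all libraries too, at folds of 19.2 to 65.6, and its IFNγ difference was -0.18 ± 0.22.

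Upstream of SOCS3, 3 weak regions had peaks in treated WT_5 and treated KO_C5 and in no other library. They are named here after their values were seen. The middle one (chr17:78365603-78366099) had folds of 9.02 and 5.82, the nearer one (chr17:78364993-78365241) 4.54 and 4.51, and the further one (chr17:78366313-78366672) 5.63 and 5.13. The middle and the further region each hold 1 GAS match, 67 and 76 bp from the nearest summit, which are the stretches printed above. Peaks were absent in treated WT_4 and treated KO_D2, so the regions were not counted as gained in either genotype. Treated WT_5 and KO_C5 had the longest lists of their genotypes, and the part of list length in these peaks was not tested.

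**Figure D5:**
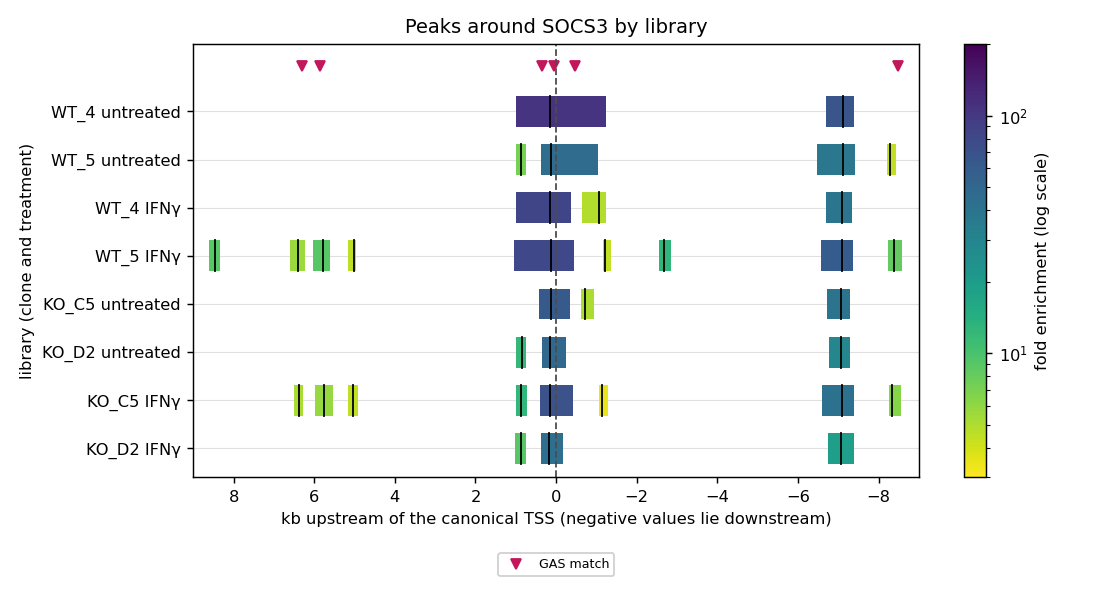
Peaks around SOCS3 in the 8 libraries (rows) by distance in kb upstream of the canonical TSS (dashed line, negative values downstream), coloured by fold enrichment on a log scale, with black ticks at summits and triangles at GAS matches. The promoter and the region 7.08 kb downstream carry a peak in every library, and the 3 peaks 5.02 to 6.39 kb upstream appear in treated WT_5 and treated KO_C5.

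At the 20 member regions without a peak in some library, peaks were compared between treatments and genotypes by count. A peak was present in more treated than untreated libraries at 15 of 20, against 60% of all such regions, and in fewer at 4 of 20, against 25.6%. More KO than WT libraries had a peak at 5 of 20 (23.1% of all such regions) and fewer at 9 of 20 (60.5% of all such regions). No member region was gained in all treated libraries (0.127% of all such regions) or lost in all (0.00192%), gained in WT (0.842%) or lost in WT (0.509%), or lost in KO (0.245%). The count gained in WT was 6 without treated WT_4 and 1 without treated or untreated WT_5. The count lost in WT was 2 without untreated WT_5 and 1 without untreated WT_4 or treated WT_5. Shares over all regions were not computed with a library left out, so these counts cannot be set against the shares above.

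Of the 11 member regions with a peak in 1 library, 7 had it in WT and 4 in KO. No member region had a peak in every library of one genotype and in none of the other. Regions with a peak in every WT and no KO library made up 0.205% of all regions, and the reverse 0.0115%. In untreated cells these shares were 3.44% and 0.242%, and with IFNγ 1.37% and 0.932%. With 1 library left out, untreated WT alone held 3 member regions without WT_4, 2 without WT_5 and 1 without KO_C5. Among treated libraries, WT alone held 3 without WT_4 and 1 without WT_5, and KO alone held 4 without KO_C5 and 2 without WT_5. These counts too lack a share over all regions under the same setting. For the regions in all libraries, 0 of 13 members were higher in every KO than in every WT library (5.87% of all such regions) and 0 of 13 were lower (5.94%).

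GAS matches were found in 10 of the 33 member regions, at 5 of the 9 genes (IFNGR2, IRF1, IRF9, SOCS3 and STAT3). In 300 bp around the summit of the strongest peak, a GAS match was present at 7 of 33 member regions (21.2%) and at 6.88% of all 52105 regions. Neighbouring regions of 1 gene, such as those at SOCS3, are counted separately here. Among regions with a peak in all 8 libraries, the match was present at 2 of 13 members and at 4.75% of all 11551. An ISRE core match was present there at 0 of 33 and at 4.10%, and TTAGGG at 1 of 33 and at 6.80%. Over their whole length, 5 of 33 member regions held TTAGGG (at IRF1, IRF9, SOCS3 and STAT2). An ISRE core match lay in 2 of 33 (at IFNGR1 and IRF1). No share over all regions was computed for whole regions. Windows of 1831 bp, the length of the IRF1 upstream region, were also read around the middle of each region. There, 3 or more GAS matches were held by 2.71% of all regions and by 3 of 33 member regions. A GAS and an ISRE core match with starts within 60 bp, as in the IRF1 upstream region, were held by 2.01% and by 2 of 33. TTAGGG was present in these windows at 45.3% of all regions and at 13 of 33 member regions (39.4%). A match is only a match of letters, and binding was not measured here.

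The other genes of the pathway were read from a list of 26 receptors, kinases, STATs and inhibitors. Of these, 19 had a promoter peak in all 8 libraries, 6 in some and 1, STAT4, in none. None of the 19 was called for IFNγ, with 5 above and 14 below 0 and a median of -0.15, against 5 above and 3 below and a median of 0.08 for the 8 member promoters, and a median of -0.10 over 8874 protein-coding promoter regions. USP18, an inhibitor of interferon receptor signalling that is itself induced by interferon, had the highest difference of the list, 0.98 ± 0.29 (adjusted p = 0.884). Its fold went from 19.2 to 37.0 in WT_4, from 9.98 to 33.9 in WT_5, from 12.1 to 16.7 in KO_C5 and from 12.7 to 22.4 in KO_D2, higher in all 4 clones. TYK2, a kinase of the type I receptor, was next with 0.80 ± 0.46 and the same direction in all 4 clones after centring. Its raw fold was lower with IFNγ in WT_4, from 19.9 to 17.9, and higher in WT_5, KO_C5 and KO_D2.

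Across the 8 libraries, the promoters most like STAT3 in centred log2 fold were those of PLEKHH3 (r = 0.991), DCUN1D5 (0.978) and ZCCHC7 (0.975). Those most like IFNGR2 were the GAK and TMEM175 promoter (0.962), TRIM13 (0.961) and ACSL3 (0.954). For STAT2 they were the IFT122 and MBD4 promoter (0.967), GTF2B (0.958) and PHLPP1 (0.955). Of the strongest promoter of each gene, these 3 had the largest spread over the libraries, and the correlations are the highest of 8873 with only 8 points each, given as a description.

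The cell type was checked by promoter peaks of marker genes. RUNX2, COL1A1 and VIM, osteoblast or mesenchymal genes, had a peak in all 8 libraries, SPARC in 5, TWIST1 in 1 and COL1A2 in none. The lymphoid genes CD79A, PTPRC and CD3E had none. Of the epithelial genes, EPCAM had a peak in all 8 libraries and CDH1 and KRT19 in 2 each. Of the myeloid genes, SPI1 had a peak in 1 library and CD14 in none.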

How the data were processed

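FAIRE-seq was measured in 8 libraries from 4 U2OS clones. Per the study's methods and the submitters' processing notes, the authors trimmed reads with Trimmomatic, aligned them to GRCh38 with Bowtie2 2.2.5, removed low mapping quality with SAMtools 1.14 and ran MACS2 2.2.7.1 on read pairs. Each library was called by itself, and use of input as control and treatment of duplicates are not given in the sources used here. The deposited fold enrichment is a ratio of summit pileup to local background, with the same constant added to each. The deposited −log10 p and −log10 q come from the same caller. The deposited score follows from −log10 q and is left unused.

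Peaks on chromosomes 1 to 22 and X were joined where they overlapped by at least 1 bp, and the strongest peak of each library was kept per region. Read totals were not analysed here. Depth was read from the summit pileup, solved with the local background from the 2 deposited measures, fold and −log10 p, by the caller's own Poisson test (whole fragments within 0.1% for 99.989% to 99.996% of peaks). Its median over peaks was 22 to 39 fragments, which sets the counting error.

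For regions in all 8 libraries, log2 fold centred on the library median was fitted with limma 3.58.1 (R 4.3.3) on 4 group means, two-sided, with Benjamini-Hochberg adjustment over all 11551 regions. Scripts were tested on simulated data. The labels name the clone, which pairs its untreated with its IFNγ library, and their deviations from group means correlated at 0.69 in WT and 0.39 in KO over regions. With 2 libraries a group these deviations are mirror images, so each genotype gives 1 correlation. WT and KO libraries share only a number. Replicates are clones with 1 library per treatment, so p-values measure the spread between clones and libraries together.

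The members and lists were chosen with earlier results of these data known. Named by rule were all 9 genes, every promoter region with a peak in at least 4 libraries, other regions called, gained, lost or in 1 genotype alone, and the highest-ranked other region of each gene. Alternatives were no centring, percentiles, pileup, lists of equal length, −log10 q of at least 3, fold of at least 4, summit windows of 150 bp either side, regions in at least 4 libraries, promoters of 500 bp or of the 5′ gene end alone, each library left out, and a clone block. A marker gene and a stretch of sequence are not reported here.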

Additional observations from a re-analysis of the deposited data

Results flagged for a closer look

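In 3 member regions, the differences with IFNγ in centred log2 fold had one sign in both WT clones and the other in both KO clones, an arrangement found at 12.4% of all regions in 8 libraries. At the JAK2 promoter the WT clones were higher and the KO clones lower, with a genotype difference of -1.15 ± 0.44 SE (adjusted p = 1.00, limma). At the STAT2 promoter the WT clones were lower and the KO clones higher, with a difference of 0.76 ± 0.56 (adjusted p = 1.00, limma). At the SOCS3 promoter the WT clones were higher and the KO clones lower, with a difference of -0.37 ± 0.53 (adjusted p = 1.00, limma). None of the 3 kept this arrangement by within-list percentile, which is not centred. Its median IFNγ effect over all 11551 regions was 5.01 in KO and 0.005 in WT. The SOCS3 promoter was then higher with IFNγ in all 4 clones, JAK2 was higher in KO_D2 (67.4 against 60.2) and STAT2 in WT_5 (99.5 against 99.1). With 1 library left out, the SOCS3 difference was 0.03 without untreated WT_5 and 0.02 without treated WT_4, and the STAT2 difference was 0.19 without treated WT_4. The JAK2 difference was -0.74 on summit pileup, and in WT_5 and KO_C5 the untreated and treated JAK2 summits lay at different positions. None of the 3 passed the test of the difference, and for STAT2 the smaller WT change, -0.01 in WT_5, was close to 0.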

How the results depend on the processing

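With the clone as a replicate block, 1 region was called for IFNγ over both genotypes and 1 in WT, in each case the IL15RA promoter, which is no member and was named after its values were seen. The block called none in KO and none for the genotype difference, as did the fit without it, and no member changed its call. Without centring, 1 region was called for IFNγ over both genotypes, 7 for KO against WT untreated and 2 with IFNγ, none of them a member. Leaving out the centring moved the median of all regions to -0.60 for KO against WT untreated and to -0.50 with IFNγ. Percentiles, pileup, equal lists, the limit on −log10 q, summit windows, regions in at least 4 libraries and each library left out called 0 regions in all 6 comparisons. The fold limit and the other promoter definitions were run for the presence of peaks alone.

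The IRF1 upstream region kept its direction under all 15 alternatives that gave a value, at 1.05 to 1.52 on the log2 scales and with adjusted p of 0.203 to 1.00. The STAT3 promoter kept its direction under 16 of 16, at 0.33 to 0.76. Over the 13 regions, the IFNγ difference kept its sign in 184 of 204 comparisons. Summit windows gave no value for the IRF1 upstream region and for the JAK2 and IFNGR2 promoters, nor did equal lists for IFNGR2, since these were then no longer shared by all libraries.

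A promoter peak in all libraries was found for 7 of 9 genes with equal lists and with the 5′ gene end alone, and for 8 under the other alternatives that gave a value. The counts of member regions gained in WT (0) became 1 with summit windows and 0 to 6 with a library left out. Those lost in WT (0) became 0 to 2 with a library left out. Those gained in KO (1) became 0 with equal lists and 1 to 5 with a library left out, and those lost in KO (0) became 1 with equal lists or summit windows. Counts in WT alone (0) became 0 to 3 untreated and 0 to 3 with IFNγ when a library was left out, and 1 with IFNγ under summit windows. Counts in KO alone with IFNγ (0) became 2 with summit windows and 0 to 4 with a library left out. The cause of these shifts was not tested. With a library left out, the pattern was asked of fewer libraries. Shares over all regions were not computed for these alternative counts of member regions.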
